A study of Homo sapiens with 2 samples.

Results

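Expression of 31 genes of sterol and fatty acid synthesis was followed in MCF10A cells, a human breast epithelial line that is immortalised but forms no tumours, through EGF stimulation and the later inhibition of MEK or PI3K. The genes were taken as a list by function: 7 enzymes of the mevalonate steps, 11 enzymes that make and process squalene and sterols, 4 regulators and carriers of sterols, 3 genes that supply acetyl-CoA and NADPH, and 6 genes of fatty acid synthesis and desaturation. All 31 were present among the 16387 genes that the count tables of both libraries share, and all 31 passed the filter on low counts and were tested with 11147 genes in all. The 8 conditions were unstimulated cells, cells given EGF alone for 15, 20 or 30 h, and cells given EGF to which an inhibitor of MEK or of PI3K was added at 15 h and which were harvested at 20 or 30 h. No condition combined both inhibitors, and the names and doses of both inhibitors were not given in the sources used here. Each condition of a biological replicate carried its own sample tag and was pooled into 1 library, so each condition has n = 2, from a single cell line, and inhibited cells had EGF throughout.

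Cholesterol is built from acetyl-CoA by way of mevalonate, isoprenoid diphosphates, squalene and lanosterol, and the same acetyl-CoA pool feeds fatty acid synthesis and desaturation. Both branches are controlled by SREBP transcription factors, which are held in the endoplasmic reticulum by INSIG proteins when sterols are abundant and move to the nucleus after cleavage in the Golgi when sterols are scarce. Growth factor signalling through PI3K, AKT and mTORC1 is known to promote SREBP activity, and proliferating epithelial cells need both sterols and fatty acids for new membranes.

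Library 1 held 2616 cells with 33089090 UMIs (unique molecular identifiers, each counting 1 captured transcript) and library 2 held 2221 cells with 28542571 UMIs, with medians of 12259 and 12332 UMIs per cell, and the libraries shared 0 cell barcodes. The sum of a condition ran from 29 to 616 cells. Library 2 held 29 unstimulated cells and 64 cells at 15 h, so early values of scarce genes there rest on few UMIs. The basal keratins KRT5, KRT14 and KRT17 were high in all 16 sums, at 1228 CPM (UMI counts of a sum scaled to a common size with TMM factors) or more. Of the luminal keratins KRT8 reached 229 CPM, KRT18 761 and KRT19 0.775. Of the markers of other cell types found in both tables, the leukocyte marker CD68 reached 9.93 CPM, the endothelial marker PECAM1 2.63, the fibroblast markers DCN, COL1A1 and PDGFRB 109, 6.73 and 0.388, and the adipocyte markers FABP4, CIDEC and PLIN1 8.52, 0.842 and 0.501, and each except DCN (lowest 5.67) was at 0 in at least 1 sum. PTPRC, CD3E, VWF, CDH5, COL1A2, LUM, ADIPOQ and LEP are listed markers with no value here, since the tables of both libraries did not each match them. At 30 h the summed luminal list was at 541 and 522 CPM in libraries 1 and 2 with EGF alone, 364 and 445 after MEK inhibition and 825 and 812 after PI3K inhibition. The basal list was at 12339.9 and 13692 CPM with EGF alone, at 25251 and 27137 after MEK inhibition and at 16798 and 22093 after PI3K inhibition. The part of these lists in the results was not tested.

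With EGF alone, sterol enzyme transcripts rose late. The summed level of the 18 sterol enzymes was 808 and 1181 CPM in libraries 1 and 2 in unstimulated cells, 837 and 1167 at 15 h, 1101 and 1369.9 at 20 h and 2042 and 2254 at 30 h. The 30 h values lay above all earlier ones in both libraries. The summed level of the 9 fatty acid genes was 115 and 141 CPM, 168 and 203, 191 and 223 and 283 and 275 at the same times, and it was already above the unstimulated level at 15 h in both libraries. Beside this, the summed level of 52 G2/M genes went from 2733 and 3326 CPM at 20 h to 5836 and 7220.0 at 30 h, and that of the S phase list from 2621 and 2688 to 2076 and 1819; whether the cycle moved the sterol genes was not tested, and in sums over cells more high cells and more RNA per cell cannot be told apart.

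**Figure D1:**
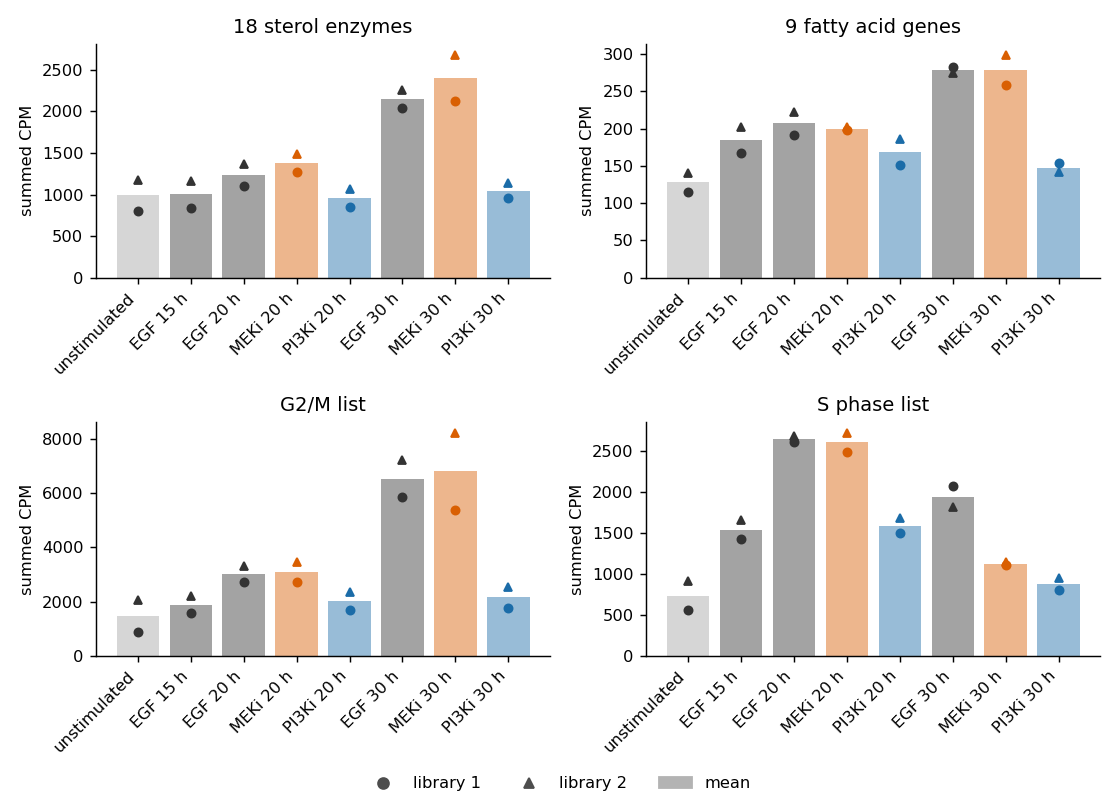
Summed CPM of the 18 sterol enzymes, the 9 fatty acid genes, the G2/M list and the S phase list in each condition (bars, mean of 2 libraries; circles, library 1; triangles, library 2; MEKi and PI3Ki, MEK and PI3K inhibitor). At 30 h the sterol enzymes stood at 2042 and 2254 CPM with EGF alone and at 953 and 1138 with the PI3K inhibitor.

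Between 20 and 30 h of EGF alone, 19 of 31 members were called higher (edgeR quasi-likelihood test, Benjamini-Hochberg adjusted p under 0.05) and 0 lower, where 4.51% of all tested genes were called higher and 3.29% lower. The median log2 difference was 0.68 over the members and -0.01 over all genes. Mevalonate enzymes rose in 6 of 7 cases, enzymes of the squalene and sterol steps in 8 of 11, regulators in 2 of 4 and fatty acid genes in 3 of 9. MVD, which decarboxylates mevalonate diphosphate, went from 19.2 and 36.1 CPM in libraries 1 and 2 to 57.4 and 87.9, a log2 difference of 1.42 ± 0.13 (SE, n = 2; adjusted p = 1.9e-12). HSD17B7, a ketoreductase of the demethylation steps, went from 7.37 and 11.5 to 21.6 and 25.2 CPM (1.33 ± 0.20, adjusted p = 2.0e-06). DHCR7, the reductase of the last step, went from 20.5 and 38.6 to 56.1 and 89.6 CPM (1.32 ± 0.13, adjusted p = 1.6e-11). INSIG1, the anchor that retains SREBPs and is itself an SREBP target, went from 11.9 and 14.7 to 30.8 and 26.0 CPM (1.08 ± 0.18, adjusted p = 1.1e-05). In these 4 genes both 30 h values exceeded both 20 h values. Without the library as a block 6 members were called, with HSD17B7 and INSIG1 among them and without MVD and DHCR7. Calls over all genes, in either direction, went from 870 to 165 when the block was left out. In cells with a low share of S and G2/M transcripts 9 of 30 tested members were called, beside 0.412% of all genes, with MVD and DHCR7 among them and without HSD17B7 and INSIG1.

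Fewer members were called in the earlier steps. From unstimulated cells to 15 h of EGF, 5 members were called higher and 3 lower, beside 14.1% and 13.9% of all genes. ELOVL6, which elongates palmitate, went from 8.42 and 13.2 to 23.2 and 35.4 CPM (log2 difference 1.44 ± 0.36, adjusted p = 0.0018), and ACLY, which makes acetyl-CoA from citrate, from 15.99 and 26.44 to 31.5 and 32.6 (0.83 ± 0.30, adjusted p = 0.029). ACAT2, which joins acetyl-CoA units at the entry of the mevalonate steps, went the other way, from 56.4 and 70.5 to 30.8 and 42.5 CPM (-0.85 ± 0.20, adjusted p = 1.0e-03). HMGCS1, which makes HMG-CoA, was at 15.2 and 35.3 CPM and then at 27.8 and 58.1 (0.81 ± 0.29, adjusted p = 0.032), so its libraries overlapped between conditions. Without the unstimulated sum of library 1 the counts were 0 higher and 0 lower, without the 15 h sum of library 1 no member was called lower, and without the 15 h sum of library 2 there were 3 higher; without the block they were 2 and 1. From 15 to 20 h, 4 members were called higher and 0 lower, beside 3.44% and 1.65% of all genes: ACAT2 (1.12 ± 0.13, adjusted p = 1.6e-08), IDI1 (0.61 ± 0.12, 4.8e-04), FDPS (0.60 ± 0.10, 2.9e-05) and EBP (0.45 ± 0.11, 0.0094). ACAT2 remained the single call without the block, and 1 call was left without the 15 h sum of library 1.

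At 30 h most of the module stood lower with the PI3K inhibitor than with EGF alone. In comparisons with EGF alone, a fall is a lower level than in EGF cells of the same hour, not a decline over time. Of 31 members 23 were called lower and 1 higher than with EGF alone, where 20% of all genes were called lower and 19.7% higher. The median log2 difference was -0.91 over the members and 0.01 over all genes tested. The summed sterol enzymes stood at 953 and 1138 CPM in libraries 1 and 2, against 2042 and 2254 with EGF alone, and the fatty acid genes at 153 and 142 against 283 and 275; neither set overlapped between conditions. The G2/M list moved the same way, with 1777 and 2524 CPM against 5836 and 7220.0 and 51 of 52 genes called lower.

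Of the mevalonate enzymes, 6 of 7 fell, with a median of -1.49. HMGCS1 (chr5:43289395-43313512, GRCh38) was at 15.4 and 23.5 CPM with the PI3K inhibitor and at 61.9 and 83.0 with EGF alone. Its log2 difference of -1.90 ± 0.13 (adjusted p = 6.7e-17) leaves 26.8% of the EGF level. ACAT2 (chr6:159760328-159779055) was at 46.2 and 58.4 CPM against 146 and 159, a difference of -1.54 ± 0.10 (adjusted p = 3.4e-18). Both genes were lower with the inhibitor in both libraries, with no overlap. IDI1, which isomerises isopentenyl diphosphate, was at 52.9 and 68.0 CPM against 154 and 188 and was called lower (adjusted p = 8.1e-18). FDPS, which makes farnesyl diphosphate, and MVD fell by 1.49 and 1.25 on the log2 scale. Mevalonate kinase, MVK, was at 10.4 and 17.7 CPM against 21.1 and 28.2 (-0.79 ± 0.17, adjusted p = 1.3e-04), and its call was lost without the block. PMVK, the kinase of the next step, is the exception of this branch, with 109.9 and 107 CPM against 116 and 105 and a difference of -0.02 ± 0.10 that was not called; it was singled out after its values were seen.

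Among the enzymes of the squalene and sterol steps 8 of 11 fell and 1 rose. The largest fall was that of HSD17B7 (chr1:162790702-162812817), at 5.96 and 8.28 CPM against 21.6 and 25.2 (-1.70 ± 0.20, adjusted p = 1.4e-09), with no overlap between conditions. DHCR7 fell by 1.45, FDFT1, the squalene synthase, by 1.01, EBP, the sterol isomerase, by 0.98, NSDHL by 0.91, SQLE, the squalene epoxidase, by 0.85, SC5D, a sterol desaturase, by 0.65 and MSMO1, a methylsterol oxidase, by 0.59, the last lost without the block. LSS, which closes the sterol rings, differed by -0.44 ± 0.20 and the lanosterol demethylase CYP51A1 by 0.03 ± 0.21, and neither was called. TM7SF2, a sterol reductase, was the member that rose, from 6.85 and 4.56 to 8.93 and 10.6 CPM (0.85 ± 0.26, adjusted p = 0.0072). That call rests on 26 to 65 UMIs per sum and was lost without the EGF sum of library 2, without the inhibitor sum of library 2 and when scaled by library totals, and in cells with a low share of S and G2/M transcripts the difference was -0.18.

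Of the regulators 3 of 4 fell. INSIG1 (chr7:155297776-155310235) was at 7.69 and 9.74 CPM against 30.8 and 26.0, a difference of -1.66 ± 0.19 (adjusted p = 2.4e-10) that leaves 31.6% of the EGF level. STARD4, a cytosolic sterol carrier, was at 2.23 and 5.52 against 11.85 and 11.98 CPM (-1.52 ± 0.28, adjusted p = 1.2e-05). SREBF1, which encodes the SREBP that mainly serves fatty acid genes, was at 3.72 and 7.79 against 11.3 and 12.8 CPM (-0.99 ± 0.26, adjusted p = 0.0016), a call lost without the inhibitor sum of library 1. SREBF2, whose product mainly serves sterol genes, was at 13.9 and 16.2 against 20.5 and 14.9 CPM and its difference of -0.17 ± 0.18 was not called. Whether the 2 SREBP genes differed from each other was not tested.

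Of the fatty acid genes 6 of 9 fell. ELOVL6 (chr4:110045846-110199199) was at 11.2 and 10.7 CPM in libraries 1 and 2, against 45.8 and 44.2 with EGF alone. Its difference of -2.05 ± 0.16 (adjusted p = 1.2e-15) was the largest of the 31, and 24.2% of the EGF level was left. SCD, which introduces the double bond of oleate, was at 22.6 and 18.3 CPM against 60.8 and 57.2 (-1.55 ± 0.14, adjusted p = 6.3e-13). FADS1, a desaturase of polyunsaturated fatty acids, fell by 1.05, ACLY by 0.91, ME1, a source of NADPH, by 0.70 and FASN, the fatty acid synthase, by 0.55. ME1 lost its call without the block and without the EGF sum of library 1 or the inhibitor sum of library 2, and FASN without the inhibitor sum of library 2. ACACA, which makes malonyl-CoA (-0.38 ± 0.18), ACSS2, which activates acetate (0.28 ± 0.20), and FADS2 (-0.74 ± 0.49, on 4 to 16 UMIs per sum) were not called. In all, 16 of the 23 falls kept their call under each of 12 alternatives.

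**Figure D2:**
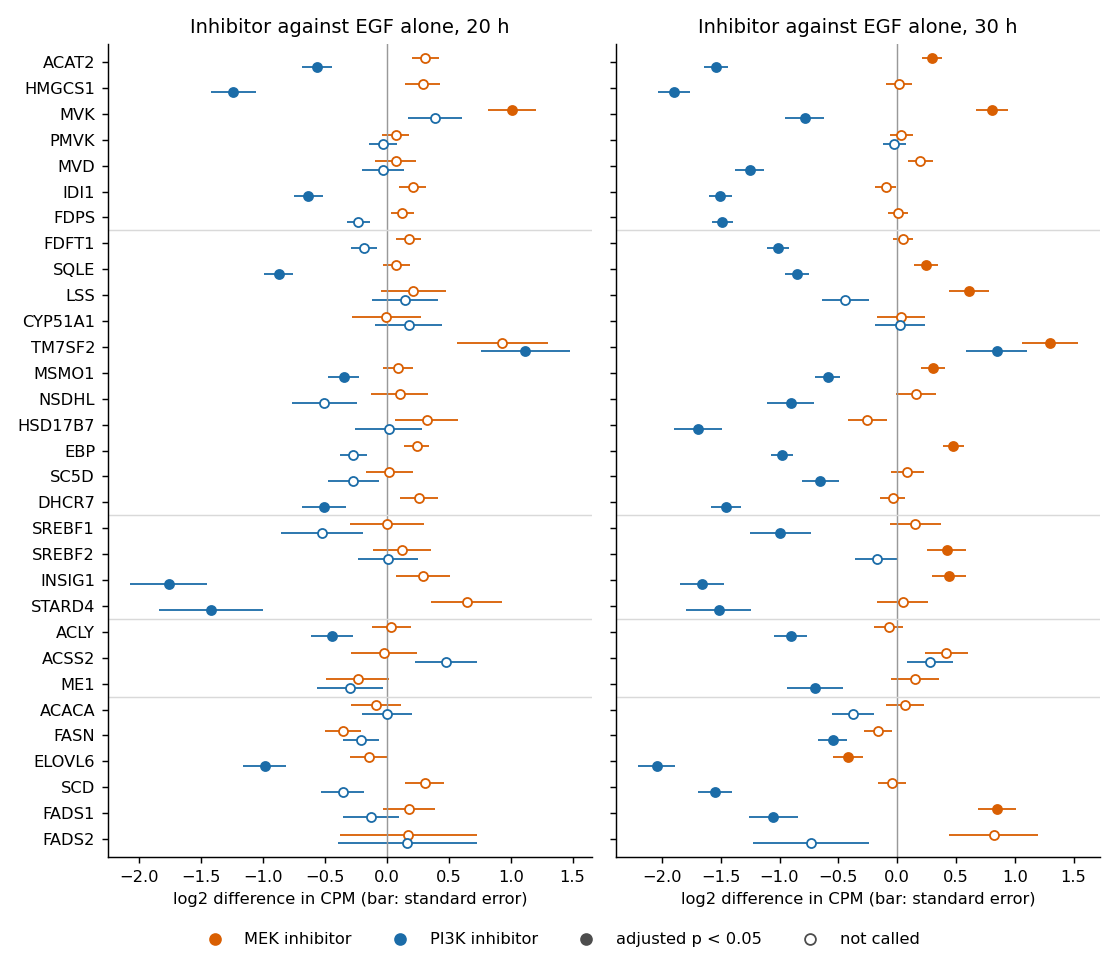
log2 difference of each of the 31 members between an inhibitor and EGF alone at 20 h (left) and 30 h (right), with standard errors; filled points have an adjusted p under 0.05, and grey lines part the 5 role groups. At 30 h the PI3K inhibitor (blue) has 23 filled points on the negative side and 1, TM7SF2, on the positive side.

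At 20 h a smaller set had moved. With the PI3K inhibitor 10 of 31 members were called lower and 1 higher, beside 11.9% and 11.4% of all genes, and the member median was -0.27. INSIG1 and STARD4 had the largest differences, from 11.9 and 14.7 to 2.53 and 5.93 CPM (-1.76 ± 0.31, adjusted p = 2.5e-05) and from 5.93 and 8.30 to 1.40 and 4.45 CPM (-1.42 ± 0.42, adjusted p = 0.0092). These are scarce transcripts, with 5 to 12 UMIs per inhibited sum, and STARD4 lost its call without either library 1 sum. HMGCS1 was at 10.4 and 23.7 CPM against 29.5 and 47.6 (-1.24 ± 0.18, adjusted p = 6.0e-07), lower in both libraries and with no overlap. ELOVL6 was at 16.8 and 18.3 against 32.0 and 38.6 (-0.99 ± 0.17, adjusted p = 2.0e-05) and SQLE at 104 and 152 against 207 and 254 (-0.87 ± 0.12, adjusted p = 7.8e-08). IDI1 (-0.63 ± 0.12), ACAT2 (-0.57 ± 0.12), DHCR7 (-0.51 ± 0.18), ACLY (-0.45 ± 0.17) and MSMO1 (-0.35 ± 0.13) were the other falls. TM7SF2 rose by 1.12 on 11 to 24 UMIs per sum. Without the block 3 falls kept their call, those of INSIG1, SQLE and ELOVL6, and TM7SF2 was not called. Without the EGF sum of library 1 there were 6 falls. The rise of TM7SF2 was lost without that sum or either inhibitor sum, and without the EGF sum of library 2 there were 2 rises. The call of MSMO1 was lost without 3 of the 4 sums, and the calls of DHCR7 and ACLY were lost without any 1 of the 4 sums. The G2/M list was again lower, with 1683 and 2346 CPM against 2733 and 3326.

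The difference between PI3K-inhibited and EGF cells was more negative at 30 h than at 20 h for 11 members. Of these, ACAT2, IDI1, DHCR7 and ELOVL6 were already called lower at 20 h, while HSD17B7 (0.01), MVD (-0.03) and MVK (0.39) stood near or above the EGF level then. The change in the PI3K inhibitor's effect was tested as an interaction, in which 3.25% of all genes were called lower and 2.4% higher. FDPS differed by -0.23 at 20 h and by -1.49 at 30 h, an interaction of -1.25 ± 0.13 (adjusted p = 1.9e-09). For HSD17B7 it was -1.71 ± 0.35 (adjusted p = 8.8e-04), for MVD -1.22 ± 0.21 (8.1e-05) and for SCD -1.19 ± 0.23 (3.5e-04). HMGCS1 (-0.66 ± 0.24), INSIG1 (0.10 ± 0.38), STARD4 (-0.09 ± 0.57) and SQLE (0.02 ± 0.15), which were already lower at 20 h, were not called. Without the block 0 of the 11 interactions were called. Within PI3K-inhibited cells the members as a set hardly moved between 20 and 30 h, with a median of 0.09, 3 called higher and 2 lower, beside 5.49% and 5.6% of all genes. SQLE rose there from 104 and 152 to 195 and 226 CPM (0.74 ± 0.12, adjusted p = 5.4e-06), with INSIG1 (1.18 ± 0.34) and MSMO1 (0.44 ± 0.13), while ELOVL6 (-0.70 ± 0.21) and FDPS (-0.39 ± 0.10) fell. None of these 5 calls was kept without the block, where calls over all genes went from 1236 to 164. Without the 20 h sum of library 1 there were 1 rise and 1 fall, without that of library 2 there were 0 falls, and without the 30 h sum of library 2 there were 1 rise and 0 falls. This comparison within 1 inhibitor was added after the data had been seen, as was the same one for the MEK inhibitor. It shares its 30 h sums with the comparison against EGF.

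The PI3K-inhibited cells of 30 h were also set against the 15 h cells, the time at which the inhibitor was added, and there 19 of 31 members were not called in either direction. The summed sterol enzymes were at 837 and 1167 CPM at 15 h and at 953 and 1138 with the PI3K inhibitor at 30 h, which overlap, and the fatty acid genes at 168 and 203 and then 153 and 142, which do not. Of 31 members 8 were called higher than at 15 h and 4 lower, beside 16.2% and 14.8% of all genes, with a member median of 0.09. FDPS was at 149.9 and 193 CPM and then 149 and 182 (-0.03 ± 0.10) and IDI1 at 50.3 and 68.0 and then 52.9 and 68.0 (0.04 ± 0.13), neither of them called. ELOVL6 went down, from 23.2 and 35.4 to 11.2 and 10.7 CPM (-1.26 ± 0.20, adjusted p = 9.8e-07), with no overlap, and was called lower under each of 12 alternatives. HMGCS1 went from 27.8 and 58.1 to 15.4 and 23.5 CPM (-0.98 ± 0.17, adjusted p = 9.6e-06), also with no overlap, and its call was lost without the block. ACLY (-0.46 ± 0.17) and ME1 (-0.85 ± 0.28) were the other members called lower. ACAT2 went up, from 30.8 and 42.5 to 46.2 and 58.4 CPM (0.59 ± 0.14, adjusted p = 8.5e-04), and so did MVD, from 13.4 and 34.0 to 24.1 and 37.2 (0.62 ± 0.18, adjusted p = 0.0062), whose libraries overlapped. TM7SF2, MSMO1, LSS, CYP51A1, SREBF2 and ACSS2 were the other members called higher. Without the block 1 member was called higher, TM7SF2, and 1 lower, ELOVL6. Without the 15 h sum of library 1 there were 0 higher, without the 30 h sum of library 1 there were 5 higher, and leaving out the 15 h or the 30 h sum of library 2 gave 2 lower each. Scaling by library totals gave 4 higher and 5 lower. This comparison, too, was added after the data had been seen, and it shares its 30 h sums with the comparison against EGF at 30 h.

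**Figure D3:**
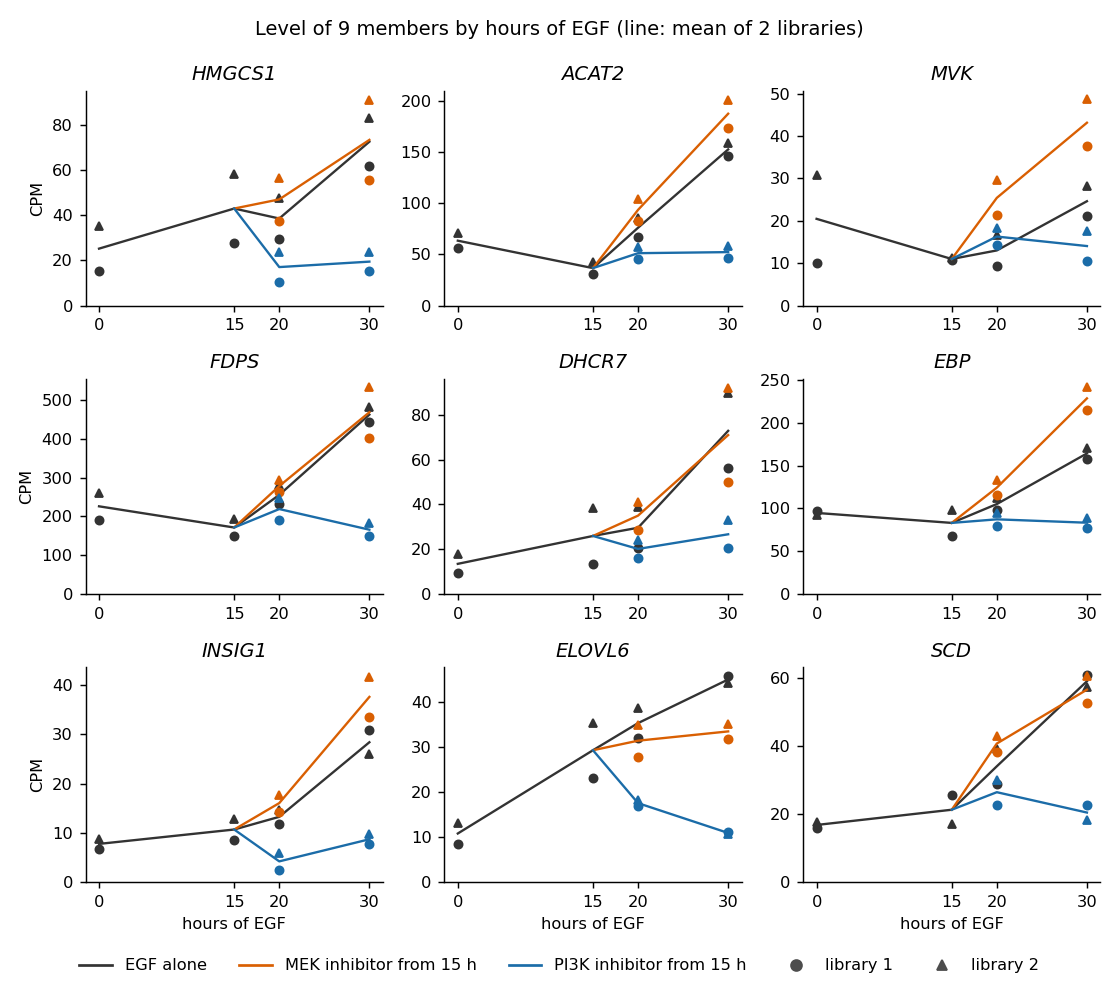
CPM of 9 members against hours of EGF for EGF alone (black), the MEK inhibitor (orange) and the PI3K inhibitor (blue), with circles for library 1, triangles for library 2 and lines through the means. The black and orange lines of HMGCS1, ACAT2, FDPS, DHCR7, INSIG1 and SCD climb between 20 and 30 h, while the blue lines end between 8.72 CPM (INSIG1) and 166 CPM (FDPS), lower than the other 2 for each of these 6 genes.

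A late rise was also seen with the MEK inhibitor. In MEK-inhibited cells the summed sterol enzymes were at 1268 and 1490.3 CPM at 20 h and 2126 and 2678 at 30 h, and 22 of 31 members were called higher at 30 h than at 20 h and 0 lower, beside 12% and 9.29% of all genes, with 13 rises kept without the block. LSS (1.21 ± 0.21), MVD (1.55 ± 0.13) and INSIG1 (1.23 ± 0.18) were among those 13, and DHCR7 (1.03 ± 0.13) was called with the block and not without it. The G2/M list went from 2729.7 and 3449 to 5388 and 8204 CPM over the same hours and the S phase list from 2496 and 2723 to 1107 and 1149.

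Against EGF alone, 1 member was called higher and 0 lower at 20 h, beside 4.8% and 7.15% of all genes; 7 members had an unadjusted p under 0.05. It was MVK (chr12:109573255-109598117), at 21.3 and 29.5 CPM against 9.45 and 16.6 (1.01 ± 0.19, adjusted p = 1.5e-04), a call lost without the block. At 30 h 10 members were called higher and 1 lower, beside 18.9% and 19% of all genes. MVK was at 37.6 and 48.7 CPM against 21.1 and 28.2 (0.80 ± 0.14, adjusted p = 3.6e-06), with no overlap. EBP (chrX:48521158-48528716) was at 215 and 242 against 158 and 171 (0.48 ± 0.09, adjusted p = 1.8e-05), also with no overlap. FADS1 was at 33.8 and 40.9 against 26.1 and 17.4 (0.85 ± 0.16, adjusted p = 2.2e-05), LSS differed by 0.61 ± 0.17, INSIG1 by 0.44 ± 0.14 and SREBF2 by 0.42 ± 0.16. The scarce TM7SF2 had the largest difference of the 10 (1.303, on 26 to 106 UMIs per sum). The smaller calls were MSMO1 (0.30), ACAT2 (0.30) and SQLE (0.24), and ELOVL6 was the member that fell (-0.42).

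These rises depended on the scaling, on the model and on which sums were used. The fit with each cell scaled to the same total also changed the test, to limma. With library totals in place of TMM factors the median of all genes moved from 0.01 to -0.16 and that of the members from 0.15 to -0.03, with 13 members above 0 and 18 below in place of 24 and 7, and 5 members were called higher and 4 lower. There were 4 calls higher without the block, 6 with DESeq2, 3 without the EGF sum of library 2, and 0 when each cell was scaled to the same total. MVK, EBP, FADS1 and TM7SF2 were the calls kept without the block, and those of LSS and FADS1 were lost without the EGF sum of library 2. The fall of ELOVL6 was lost without the block and without the EGF sum of library 1 or the inhibitor sum of library 2. In the interaction of the MEK inhibitor with time 0 members were called in either direction by edgeR and by DESeq2, beside 2.9% of all genes higher and 2.63% lower, and 2 had an unadjusted p under 0.05. In the PI3K comparisons library totals moved the median of all genes to -0.14 at 20 h and -0.22 at 30 h. That of the members moved to -0.42 and -1.14, so it was negative under both scalings. With library totals 6 members were above 0 and 25 below at 20 h, in place of 9 and 22. At 30 h 2 were above and 29 below, in place of 3 and 28.

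Set directly against each other, the inhibitors differed over most of the module. At 30 h 27 of 31 members were called higher with the MEK than with the PI3K inhibitor and 0 lower, beside 21.2% and 20.3% of all genes, with a member median of 1.15. INSIG1 was at 33.6 and 41.6 CPM in MEK-inhibited cells and 7.69 and 9.74 in PI3K-inhibited cells (2.10 ± 0.17, adjusted p = 7.1e-15). HMGCS1 differed by 1.91 ± 0.13, FADS1 by 1.90 ± 0.18, from 8.93 and 11.0 to 33.8 and 40.9 CPM, and ACAT2 by 1.84 ± 0.10. All 4 were without overlap between conditions. PMVK, CYP51A1, TM7SF2 and ACSS2 were the members not called. At 20 h 15 members were called higher and 0 lower, beside 11.2% and 10.5% of all genes, led by HMGCS1 (1.53 ± 0.18), SQLE (0.95 ± 0.12), ACAT2 (0.88 ± 0.12) and IDI1 (0.84 ± 0.12) among those above 20 CPM, and 6 were called without the block. The inhibitors' comparisons with EGF share their EGF sums, and this comparison uses the same inhibitor sums as they do. All conditions were fitted together, so the EGF sums also enter the library block and the spread used here. Each log2 difference between the inhibitors is that of the MEK inhibitor from EGF minus that of the PI3K inhibitor from EGF. The comparison is therefore not separate evidence.

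Because the G2/M list moved with the sterol enzymes, the comparisons were repeated in cells at or below their library's median share of S and G2/M transcripts, a choice that leaves 43 and 42 EGF cells and 298 and 404 PI3K-inhibited cells at 30 h in libraries 1 and 2. In these cells 18 of 30 tested members were called lower with the PI3K inhibitor at 30 h and 0 higher, beside 5.26% and 5.31% of all genes. The median of these 30 was -1.01, against -0.91 for the 31 in all cells. Levels of S and G2/M transcripts were not compared between conditions within the low-share cells, and the part of the cycle was not tested. HMGCS1 differed by -2.08 there, ELOVL6 by -1.93, INSIG1 by -1.49 and EBP by -0.86. The calls of MVK, SC5D, SREBF1, ME1 and FASN were lost. At 20 h 5 falls were called, beside 4.86% of all genes, at -1.15 for HMGCS1 and -1.53 for INSIG1. With the MEK inhibitor at 30 h 3 members were called higher, beside 5.09% of all genes: MVK (1.38), EBP (0.67) and FDFT1 (0.43). Between the inhibitors at 30 h 24 were called higher and 0 lower, beside 17.2% and 16.5% of all genes, at 2.02 for INSIG1.

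**Figure D4:**
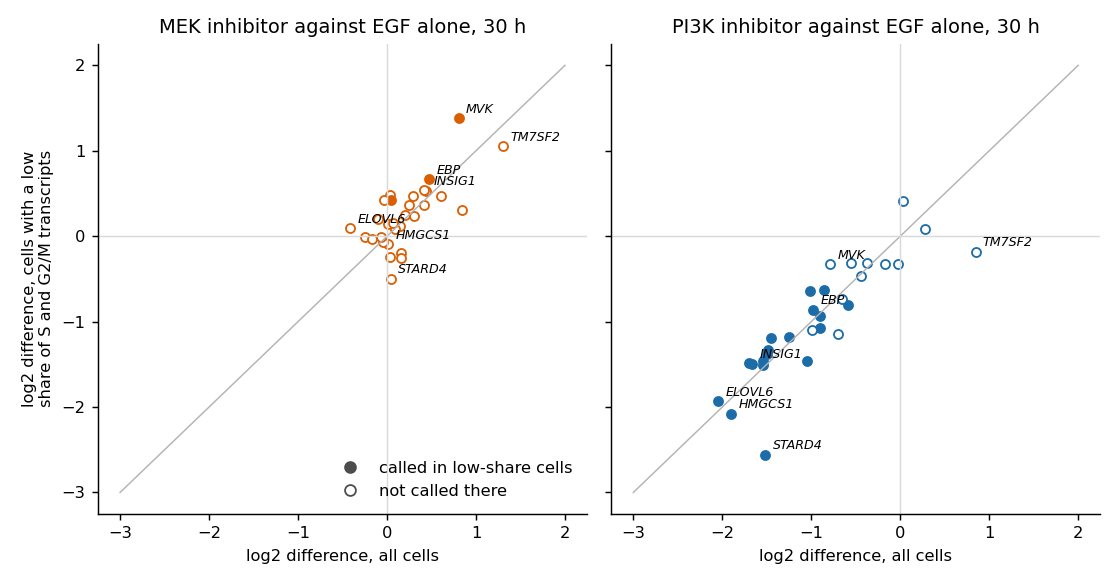
log2 difference at 30 h in all cells (horizontal) and in cells with a low share of S and G2/M transcripts (vertical) for 30 members, with the MEK inhibitor left and the PI3K inhibitor right; the diagonal marks equal values and filled points are called in the low-share cells. With the PI3K inhibitor 18 points are filled, all on the negative side, with HMGCS1 at -2.08 and STARD4 at -2.56.

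Within single conditions, cells with more S and G2/M transcripts also held somewhat more sterol enzyme transcripts. Cells above the median share of S and G2/M transcripts of their own condition and library held more sterol enzyme transcripts per UMI than cells below it in 15 of 16 sums, with a median log2 ratio of 0.25, and more fatty acid gene transcripts in 14 of 16, with a median of 0.17. EBP was higher in the high-share cells in 16 of 16 sums (median 0.28), ACAT2 in 15 (0.53) and INSIG1 in 13 (0.81), while TM7SF2 was higher in 7 of 16 (-0.26). Other members were less uniform, with HMGCS1 (0.18) and MVK (0.12) higher in 10 of 16 sums. DHCR7 was higher in 8 of the 15 sums that gave a ratio (0.001). These ratios come with no test, since cells are not replicates.

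Per cell, the PI3K-inhibited cells held fewer sterol enzyme transcripts across most of the distribution. Each cell was thinned to 6000 UMIs, and between 14 and 41 shallower cells per sum at 30 h were left out. The mean number of sterol enzyme UMIs per cell at 30 h was 11.9 and 15.5 in EGF cells of libraries 1 and 2, 11.2 and 16.2 in MEK-inhibited cells and 4.997 and 6.51 in PI3K-inhibited cells. The upper quartile with the PI3K inhibitor, 6 and 8 UMIs, lay below the lower quartile with EGF alone, 8 and 12. Without thinning the mean was 31.7 and 38.8 UMIs per cell with EGF and 10.2 and 13.9 with the PI3K inhibitor, whose cells also had fewer UMIs in all (median 11952 and 11650.0 against 16000.0 and 15371). Fatty acid gene UMIs per thinned cell were 1.69 and 1.98 with EGF and 0.837 and 0.873 with the PI3K inhibitor. Over all conditions the variance of sterol enzyme UMIs was 1.21 to 2.76 times their mean. Free RNA in the droplets can add to these counts and was not estimated.

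**Figure D5:**
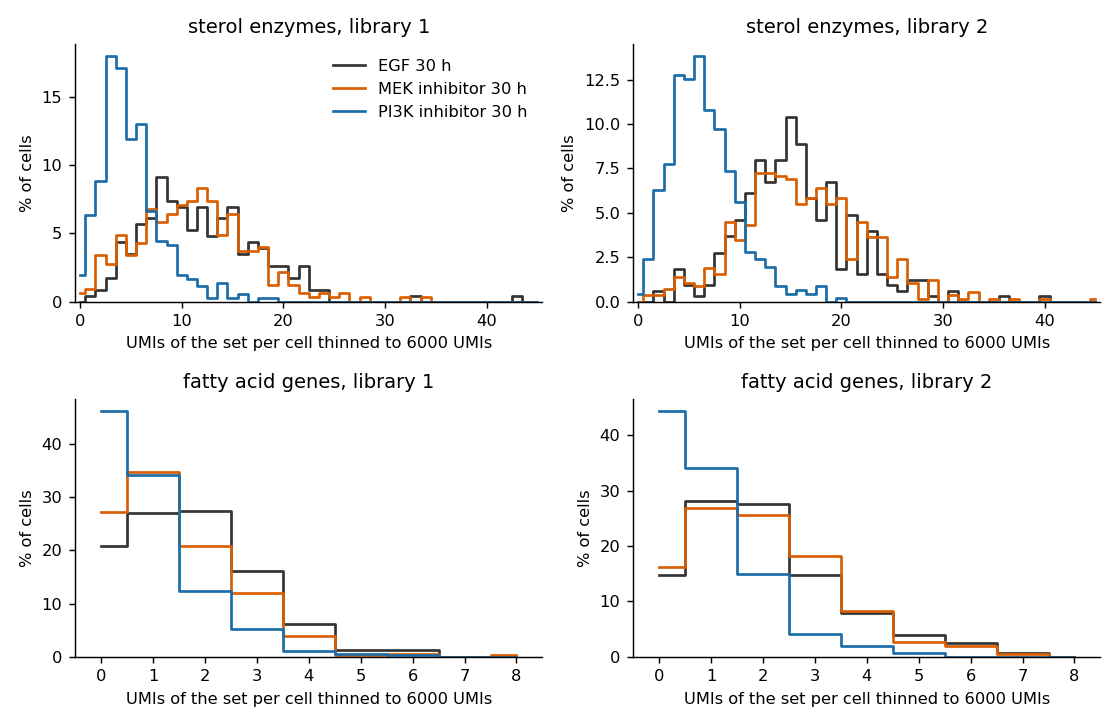
Share of cells (vertical, percent) by number of sterol enzyme UMIs (top) or fatty acid gene UMIs (bottom) after thinning each cell to 6000 UMIs, at 30 h in library 1 (left) and library 2 (right). The PI3K-inhibited cells (blue) have medians of 4 and 6 sterol enzyme UMIs, and cells with EGF alone (black) 11 and 15.

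CCAAT was common in the promoters of the module, and the strict sterol element was rare. Of 31 members 27 had a window in the RefSeq table used (GRCh38.p14, 250 bases before to 50 after the start), and 21 of these 27 genes (77.8%) held CCAAT, the core bound by NF-Y, on either strand, as did 39.7% of 27305 genes with windows of this length. The 27305 genes were not limited to those tested here, whereas all 27 members were tested, so the shares are not of like sets. The sterol regulatory element in its strict form TCACNCCAC was found in 1 of 27 genes, against 1.39% of all genes, and the E-box CACGTG in 3 of 27 (11.1%), against 8.77%. In the PI3K comparison at 30 h the median was -0.91 for the 21 genes with CCAAT and -0.85 for the 6 without. Of the 21 genes 15 were called lower, and of the 6 genes 4 were. ELOVL6, whose fall was the largest of the members, is among the 6 and has no match of the 3 motifs. A match describes letters and not binding. The 250 bases before the start are shown, 5′ to 3′ on the gene's strand, for HMGCS1 and INSIG1, which fell at both times, for SREBF2, whose window has the strict element, and for PMVK, which was not called at 30 h and has no match, all chosen after their values were seen, with CCAAT (or ATTGG, its other strand) and TCACNCCAC in capitals.

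HMGCS1, chr5:43313413-43313662 (- strand), 2 matches, at 155 and 100 bases before the start:
HMGCS1: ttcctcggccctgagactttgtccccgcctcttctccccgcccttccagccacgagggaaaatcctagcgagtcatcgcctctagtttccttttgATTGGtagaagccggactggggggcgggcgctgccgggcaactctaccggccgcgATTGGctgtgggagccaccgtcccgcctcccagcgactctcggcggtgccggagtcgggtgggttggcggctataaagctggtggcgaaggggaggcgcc
INSIG1, chr7:155297628-155297877 (+ strand), 1 match of CCAAT, at 170, and 1 of CACGTG, at 55 and not in capitals:
INSIG1: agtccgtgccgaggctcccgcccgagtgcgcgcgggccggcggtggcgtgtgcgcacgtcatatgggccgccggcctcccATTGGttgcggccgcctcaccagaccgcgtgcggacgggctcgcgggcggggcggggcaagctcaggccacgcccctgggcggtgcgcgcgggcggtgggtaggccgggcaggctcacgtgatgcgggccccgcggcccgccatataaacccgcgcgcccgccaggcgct
SREBF2, chr22:41832855-41833104 (+ strand), the sterol element at 133 and CCAAT at 106, which do not overlap:
SREBF2: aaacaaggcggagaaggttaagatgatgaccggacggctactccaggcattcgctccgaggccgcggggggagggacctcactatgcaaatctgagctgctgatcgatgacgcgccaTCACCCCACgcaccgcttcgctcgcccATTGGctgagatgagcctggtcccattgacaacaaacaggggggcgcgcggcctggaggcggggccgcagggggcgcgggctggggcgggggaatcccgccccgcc
PMVK, chr1:154936720-154936969 (- strand), no match of the 3 motifs:
PMVK: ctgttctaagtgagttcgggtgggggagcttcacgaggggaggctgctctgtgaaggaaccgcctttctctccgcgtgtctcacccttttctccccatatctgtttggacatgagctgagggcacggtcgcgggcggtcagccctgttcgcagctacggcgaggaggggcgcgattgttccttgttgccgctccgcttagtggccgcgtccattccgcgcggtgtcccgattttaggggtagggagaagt

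Outside the module, the genes with the most similar course were mostly mitotic. Over the 8 condition means, the correlation of log2 CPM, after subtracting each library's mean, with the sterol enzymes' mean was highest, among genes of at least 20 CPM, for DLGAP5 (r = 0.992), CCNB2 (0.9896), TOP2A (0.987), UBE2C (0.984), ASPM (0.983) and DBI (0.983), which encodes an acyl-CoA binding protein. The points share libraries and scaling, so this is a description. Members of the module had r between 0.644 (ELOVL6) and 0.9899 (FDFT1) among those abundant enough to be compared. The mean includes the sterol enzymes themselves, which raises their r and not that of the genes outside the module.

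Neighbouring lipid genes moved in part, and several of their counts are near the share of all genes called at 30 h, which was 19.7% higher and 20% lower with the PI3K inhibitor and 18.9% and 19% with the MEK inhibitor. The genes named have at least 20 CPM in 1 of the conditions compared, and scarcer genes of a list may differ more. Of 14 genes of SREBP processing and sterol uptake, 6 fell and 3 rose with the PI3K inhibitor at 30 h, with a median of 0.02. The scavenger receptor SCARB1 (-1.16 ± 0.19) and TMEM97 (-1.07 ± 0.14) fell, while the lysosomal sterol carrier NPC2 (0.51 ± 0.10) and the SREBP protease gene MBTPS1 (0.37 ± 0.14) rose. Of 24 fatty acid oxidation genes, 10 rose and 0 fell with the MEK inhibitor at 30 h, with PDK4, a brake on glucose oxidation (1.61 ± 0.18), HADHB (0.94 ± 0.09) and ACAA1 (0.75 ± 0.12) among them, and 6 rose and 2 fell with the PI3K inhibitor. Among 28 other lipid synthesis genes, 12 rose and 6 fell with the MEK inhibitor at 30 h, with LPIN1 (1.25 ± 0.13), TECR (1.07 ± 0.10) and IDH1 (1.02 ± 0.13) among those that rose and ACSL4 (-1.26 ± 0.15) among those that fell, and 4 rose and 7 fell with the PI3K inhibitor, HACD3 (-1.23 ± 0.15) among the latter. Of 14 genes of the isoprenoid branches 3 rose and 5 fell with the PI3K inhibitor at 30 h, FNTA (0.54 ± 0.10) and PDSS1 (-0.89 ± 0.15) among them, and of 7 sterol efflux genes 1 rose and 0 fell.

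Some counts may be shared with neighbours, since the strand setting of the counting was not given in the sources used here. In GENCODE v29 ACAT2 overlaps TCP1 over 558 bases on the other strand, MVK overlaps MMAB over 620 bases, SREBF1 overlaps RAI1 over 1055 bases and the spans of FADS1 and FADS2 overlap over 29694 bases, so reads of these pairs may be split between them. ACAT2 also overlaps SOD2 over 2202 bases. On the same strand, CYP51A1 overlaps AC000120.2 over 22645 bases and AC000120.3 over 3030 bases, and FADS2 overlaps FEN1 over 4265 bases. A strand setting does not part these pairs, so the low values of CYP51A1 and FADS2 are uncertain to that extent. FDPS and HSD17B7 have pseudogenes elsewhere in the genome, and their values are uncertain to that extent.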

How the data were processed

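Single-cell RNA-seq of MCF10A cells was deposited as UMI count tables of 2 libraries with a table assigning each cell to a condition by its sample tag. The authors made the counts with Cell Ranger 3.0.2 on GRCh38 and used Seurat, per the submitters' processing notes. The annotation, the cell filter and the tag-calling rule were not given in the sources used here. Barcodes tagged as doublets (4848 and 2478) were not in the count tables, doublets within 1 condition cannot be seen, and no doublet caller was run.

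UMIs were summed per library and condition into 16 sums (213216 to 8508948 UMIs). Genes passing filterByExpr (11147 of 16387) were fitted with edgeR 4.0.16 (R 4.3.3), TMM factors (0.829 to 1.158) and the quasi-likelihood F test over all 8 conditions with the library as a block. The residual degrees of freedom were 7 and the median prior degrees of freedom 43.3, so the tests rest largely on spread shared across genes. Each SE was derived from the log2 difference and the F statistic, and is not the spread of 2 libraries. The common biological coefficient of variation was 0.060. The p-values were adjusted by Benjamini-Hochberg over all tested genes with a threshold of 0.05. The block follows from the labels, since the conditions of 1 replicate were pooled in 1 library. Deviations of sums of 1 library had a median correlation of 0.588 (0.281 to 0.677 over 28 pairs of conditions, 4702 genes). The replicates are called biological by the labels, and n is 2 throughout.

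Alternatives were a fit without the block, scaling by library totals, no low-count filter, DESeq2 1.42.0, a fit of the compared conditions alone, cells scaled to the same total with limma 3.58.1 (log offset 1), cells with a low share of S and G2/M transcripts, cells above 20000 UMIs left out, and each sum left out in turn. The edgeR procedure was tested on simulated data. Those data had no library effect and the same spread for all genes, so they cannot test the block. By rule, per-library values were given for up to 6 called members in an inhibitor comparison, and up to 4 in others, with the largest changes. The rule also asked that both libraries moved the same way and that 1 condition averaged 20 CPM or more. Up to 3 genes each way were named from related lists, and some are not reported here. Other members that were named or given per-library values, some of them not called or below 20 CPM, were chosen after their values were seen. The members and lists were chosen with earlier results of these data known. Promoter windows came from RefSeq (GRCh38.p14) and gene positions from GENCODE v29.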

Additional observations from a re-analysis of the deposited data

Results flagged for a closer look

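The effect of the PI3K inhibitor differed between 20 and 30 h for 11 of 31 members, by a test of the interaction in edgeR with the library as a block. For mevalonate enzymes the difference of the log2 effects was -0.97 for ACAT2, -1.18 for MVK, -1.22 for MVD, -0.87 for IDI1 and -1.25 for FDPS. For enzymes of the squalene and sterol steps it was -0.83 for FDFT1, -1.71 for HSD17B7, -0.71 for EBP and -0.94 for DHCR7. For fatty acid genes it was -1.06 for ELOVL6 and -1.19 for SCD. In each of the 11 genes the 30 h effect was the more negative. The same interaction called 38 of 52 G2/M genes lower, and the part of the cycle in these differences was not tested. No interaction among the 11 was called without the block, where 6 of all tested genes were called in place of 630.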

How the results depend on the processing

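Counts of called members that moved by over 1.5 times, or were lost, are given by setting. Without the block the calls over all tested genes, in either direction, also fell in each comparison. They went from 2607 to 840 for the PI3K inhibitor at 20 h and from 4215 to 2136 for the MEK inhibitor at 30 h. For MEK against PI3K inhibitor at 20 h they went from 2412 to 997, and for 15 h of EGF from 3116 to 1876. Without the library as a block (no pairing), members called were 0 higher (MEK inhibitor at 20 h), 4 higher (MEK inhibitor at 30 h), 0 lower (MEK inhibitor at 30 h), 0 higher (PI3K inhibitor at 20 h), 3 lower (PI3K inhibitor at 20 h), 6 higher (MEK against PI3K inhibitor at 20 h), 2 higher (15 h of EGF), 1 lower (15 h of EGF), 1 higher (15 to 20 h of EGF), 6 higher (20 to 30 h of EGF), 0 lower (PI3K interaction), 13 higher (MEK inhibitor from 20 to 30 h), 0 higher (PI3K inhibitor from 20 to 30 h), 0 lower (PI3K inhibitor from 20 to 30 h), 1 higher (PI3K inhibitor at 30 h against 15 h of EGF) and 1 lower (PI3K inhibitor at 30 h against 15 h of EGF). Scaled by library totals they were 5 higher (MEK inhibitor at 30 h), 4 lower (MEK inhibitor at 30 h), 0 higher (PI3K inhibitor at 30 h) and 4 higher (PI3K inhibitor at 30 h against 15 h of EGF). With DESeq2 they were 6 higher (MEK inhibitor at 30 h), 0 lower (MEK inhibitor at 30 h), 0 higher (PI3K inhibitor at 20 h), 0 higher (PI3K inhibitor at 30 h), 1 higher (15 h of EGF) and 3 higher (PI3K inhibitor at 30 h against 15 h of EGF). With the compared conditions alone they were 3 higher (MEK inhibitor at 20 h) and 1 higher (15 h of EGF). With cells scaled to the same total they were 0 higher (MEK inhibitor at 20 h), 0 higher (MEK inhibitor at 30 h), 0 lower (MEK inhibitor at 30 h), 0 higher (PI3K inhibitor at 20 h), 0 higher (PI3K inhibitor at 30 h), 9 higher (MEK against PI3K inhibitor at 20 h), 17 higher (MEK against PI3K inhibitor at 30 h), 9 higher (15 h of EGF), 1 lower (15 h of EGF), 2 higher (15 to 20 h of EGF), 7 higher (20 to 30 h of EGF), 10 higher (MEK inhibitor from 20 to 30 h), 0 higher (PI3K inhibitor from 20 to 30 h), 0 lower (PI3K inhibitor from 20 to 30 h), 1 higher (PI3K inhibitor at 30 h against 15 h of EGF) and 2 lower (PI3K inhibitor at 30 h against 15 h of EGF). In cells with a low share of S and G2/M transcripts they were 3 higher (MEK inhibitor at 30 h), 0 lower (MEK inhibitor at 30 h), 0 higher (PI3K inhibitor at 20 h), 5 lower (PI3K inhibitor at 20 h), 0 higher (PI3K inhibitor at 30 h), 9 higher (MEK against PI3K inhibitor at 20 h), 1 higher (15 h of EGF), 1 higher (15 to 20 h of EGF), 9 higher (20 to 30 h of EGF), 1 lower (PI3K inhibitor from 20 to 30 h) and 4 higher (PI3K inhibitor at 30 h against 15 h of EGF). Without cells above 20000 UMIs they were 3 higher (15 h of EGF). Leaving out 1 sum at a time gave 3 to 10 higher (MEK inhibitor at 30 h), 0 to 1 lower (MEK inhibitor at 30 h), 0 to 2 higher (PI3K inhibitor at 20 h), 6 to 8 lower (PI3K inhibitor at 20 h), 0 to 1 higher (PI3K inhibitor at 30 h), 0 to 6 higher (15 h of EGF), 0 to 4 lower (15 h of EGF), 1 to 5 higher (15 to 20 h of EGF), 1 to 3 higher (PI3K inhibitor from 20 to 30 h), 0 to 2 lower (PI3K inhibitor from 20 to 30 h), 0 to 7 higher (PI3K inhibitor at 30 h against 15 h of EGF) and 2 to 4 lower (PI3K inhibitor at 30 h against 15 h of EGF). Directions reversed for 2 called members, both in the low-share cells, with ELOVL6 at 0.095 for the MEK inhibitor and TM7SF2 at -0.18 for the PI3K inhibitor, both at 30 h. The falls with the PI3K inhibitor at 30 h stayed within 1.5 times of 23 under each of 12 alternatives, and 16 genes kept their call in all of them. The cause of the other changes was not tested, except that low-share cells and left-out sums have fewer cells or sums to test.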
